A study of Mus musculus with 12 samples.

Results

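The genes described here code for the machinery that builds the peroxisome and for the lipid enzymes and transporters that work in it. They were chosen by symbol, as the rows of the deposited TPM table that carry the name of a peroxin, an enzyme of peroxisomal oxidation, a peroxisomal acyl-CoA transporter, an enzyme of ether lipid synthesis or a peroxisomal membrane protein. All 34 were found among the 25124 genes of the table. The rule uses symbols and no measured value, but the list was drawn up with earlier results of these data known. They comprise 13 peroxins, 19 enzymes and transporters and 2 membrane proteins of neither class. Interscapular brown adipose tissue (BAT) was taken from male mice at 10 weeks of age after 1 week at room temperature (RT, 23 °C) or at thermoneutrality (TN, 30 °C). There were 4 groups of 3 libraries, WT and Txnip-/- mice at RT and both genotypes again at TN, so that no group carried an allele or agent other than the Txnip deletion. The Txnip-/- mice were kept on a C57B/6J background and lacked the gene in all tissues, so differences between genotypes are not tied to brown adipocytes. The labels do not say that a library came from a mouse of its own, and p-values then measure the spread between these libraries.

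Peroxisomes are small organelles bounded by a single membrane. Their enzymes are made in the cytosol and carried in by receptors that read a targeting signal, are docked at the membrane, and are then pulled out again for reuse. Inside, chains too long or too branched for mitochondria are shortened by an oxidase that passes electrons to oxygen, by a bifunctional enzyme that hydrates and dehydrogenates, and by a thiolase. The shortened chains leave as carnitine esters, and ether lipid synthesis starts in the same organelle. BAT, which burns fat for heat, is rich in peroxisomes, and several of these genes are known targets of the fatty acid receptor PPAR alpha.

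Expression is given in TPM, a unit scaled for transcript length and library size that can be compared between genes. Tests were made with limma on log2(TPM + 1) for genes whose TPM averaged at least 1 in the libraries of the test, with Benjamini-Hochberg adjustment over all of them. A call needed a level more than 25% higher or more than 20% lower and an adjusted p under 0.05, and log2 fold changes are on the log2(TPM + 1) scale, which makes those of low genes smaller. In units of 1e6 reads, libraries held 29.93 to 47.44 in total, of which 19.19 to 29.23 fell on genes as recovered from the deposited TPM. Each member had at least 160 reads in every library except Acox2, with 19 to 107. Txnip, the deleted gene, was at 613 ± 70.8 TPM (SD, n = 3) in RT WT and at 29.0 ± 5.59 TPM (SD, n = 3) in RT Txnip-/-, and at 1131 ± 92.7 (SD, n = 3) and 11.98 ± 2.12 TPM (SD, n = 3) at TN. Pearson's r across genes between libraries of a group was 0.9854 to 0.9934. The 7 genes read as brown adipocyte markers (Ucp1, Cidea, Cox8b, Elovl3, Adipoq, Plin1 and Fabp4) summed to between 17240 and 29412 TPM in every library. The paper reads Adipoq as an adipocyte marker in brown and white fat, so the list is not particular to brown adipocytes.

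Levels of the members spanned a wide range. In RT WT, Phyh, the hydroxylase that starts the breakdown of phytanic acid, stood highest with 732 ± 14.2 TPM (SD, n = 3). Crat, Hsd17b4, Gnpat, Abcd3, Scp2 and Eci2 followed with means of 293, 224, 207, 199, 187 and 175 TPM, and from Hsd17b4 down each gene overlapped the next one in this order over the 3 libraries. Among the peroxins Pex6 and Pex19 were the highest, with 105 ± 10.4 and 103 ± 3.68 TPM (SD, n = 3), which did not differ beyond their spread. Far1 had 4.65 ± 0.389 TPM (SD, n = 3), Pex26 had 5.88 ± 0.434 TPM (SD, n = 3) and Agps had 7.75 ± 0.512 TPM (SD, n = 3). Acox2, an oxidase of branched chains and bile acid precursors, was barely present, with 0.690 ± 0.436 TPM (SD, n = 3).

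To show the sequence in front of the genes that the results turn on, 4 promoters are printed. Ehhadh and Acaa1b had the lowest log2 fold changes at TN against RT. Pex7 and Pecr were lower in Txnip-/- mice. Each run is the 250 bases before the transcription start, from RefSeq on GRCm38.p6 (mm10), read 5′ to 3′ on the strand of the gene, and capitals mark CCAAT in either orientation.
Ehhadh, chr16:21787835-21788084, minus strand: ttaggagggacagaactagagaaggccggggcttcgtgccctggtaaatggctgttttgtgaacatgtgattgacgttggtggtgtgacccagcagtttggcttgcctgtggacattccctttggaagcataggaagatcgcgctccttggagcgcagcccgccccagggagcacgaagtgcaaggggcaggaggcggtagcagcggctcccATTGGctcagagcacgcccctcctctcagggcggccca
Acaa1b, chr9:119157094-119157343, minus strand: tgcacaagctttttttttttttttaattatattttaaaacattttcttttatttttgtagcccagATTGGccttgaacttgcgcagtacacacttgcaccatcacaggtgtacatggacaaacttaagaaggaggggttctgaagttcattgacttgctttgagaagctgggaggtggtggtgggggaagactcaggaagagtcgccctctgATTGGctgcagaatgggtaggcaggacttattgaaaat
Pex7, chr10:19907675-19907924, minus strand: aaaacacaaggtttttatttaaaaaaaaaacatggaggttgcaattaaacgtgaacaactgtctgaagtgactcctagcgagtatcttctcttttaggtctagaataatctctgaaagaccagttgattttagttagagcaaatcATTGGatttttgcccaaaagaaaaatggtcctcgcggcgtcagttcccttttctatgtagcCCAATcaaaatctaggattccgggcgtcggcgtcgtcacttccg
Pecr, chr1:72284322-72284571, minus strand: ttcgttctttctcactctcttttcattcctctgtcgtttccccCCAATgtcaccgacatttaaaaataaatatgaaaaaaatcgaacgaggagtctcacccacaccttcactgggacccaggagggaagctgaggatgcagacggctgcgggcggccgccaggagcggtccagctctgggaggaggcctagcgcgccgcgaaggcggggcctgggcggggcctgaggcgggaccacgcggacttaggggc

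These 4 stretches all held a CCAAT, which begins 38 bases before the start in Ehhadh, 185 and 38 bases before it in Acaa1b, 105 and 44 before it in Pex7 and 207 before it in Pecr. RefSeq promoter windows, from 250 bases before to 50 after the start, were at hand for 27 of the 34 members and 27025 genes in all. CCAAT on either strand was in 13 of the 27 members, or 48.1%, and in 41.1% of all genes. The perfect direct repeat of AGGTCA with 1 base between the copies, the kind of site that PPAR-RXR pairs bind, was in 0 of the 27 and in 0.0481% of all genes. With any base at the fourth place of each copy it was in 0 of the 27 and in 0.451% of all. The single AGGTCA on either strand, which lies within that repeat, was in 3 members (Pex11g, Phyh and Scp2), or 11.1%, against 18.1% of all genes. The cAMP response element TGACGTCA, which reads alike on both strands, was in Pex11g and Pex13, or 7.41%, against 2.03% of all. A match is a stretch of letters and no evidence of binding, and enhancers further away were not searched. The members' windows had a median GC content of 58.3%, against 52.8% over all genes.

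**Figure D1:**
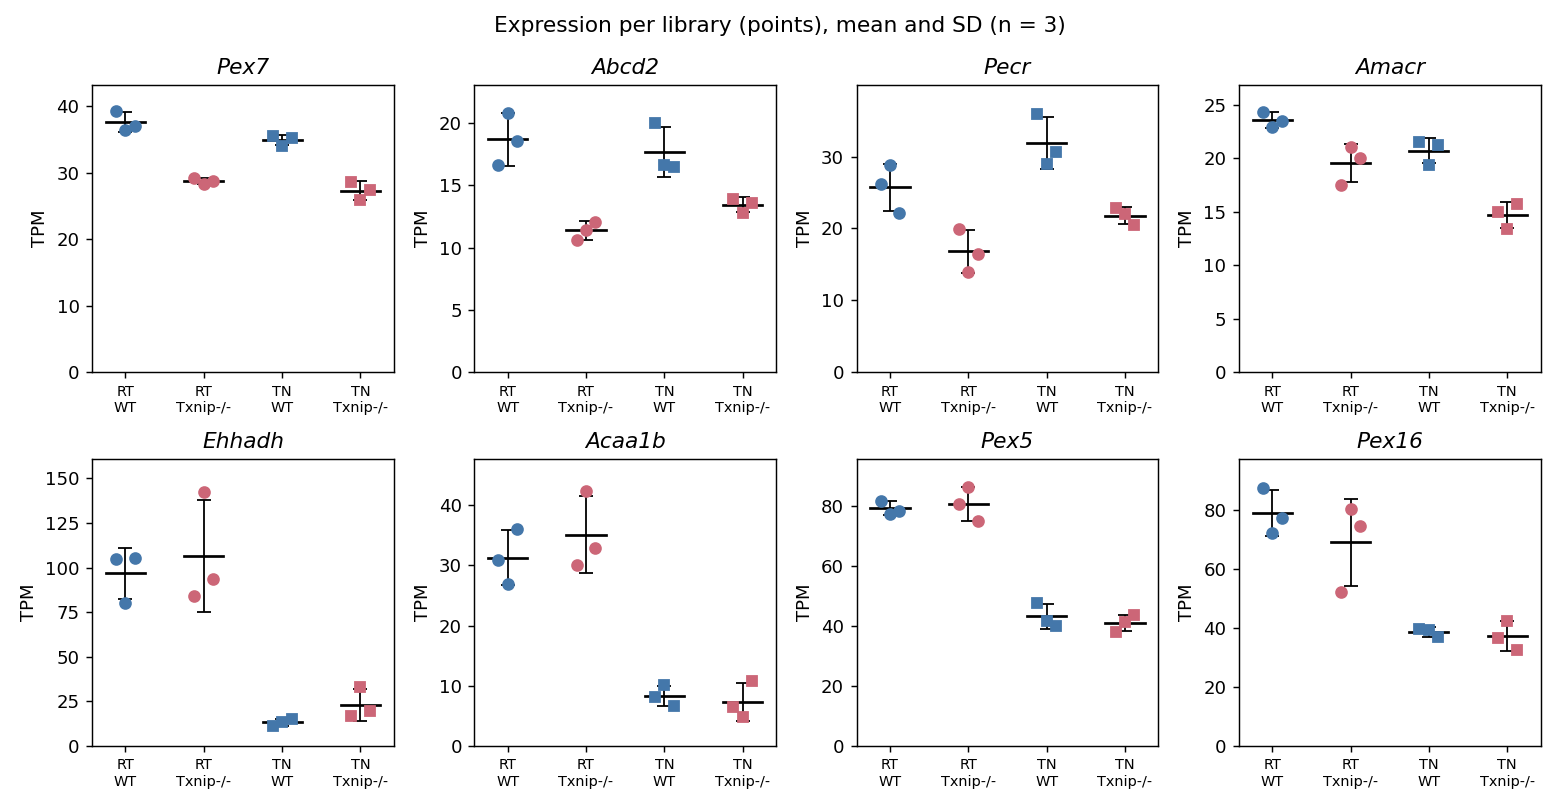
TPM of 8 members in the 12 libraries, with a point for each library, a horizontal line for the group mean and bars for the SD (n = 3). In the upper row every Txnip-/- library lies below every WT library of its temperature. In the lower row every TN library lies below every RT library, with Ehhadh at 11.1 to 33.2 TPM at TN and 80.4 to 143 TPM at RT.

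At RT, the comparison of Txnip-/- with WT mice asks what loss of Txnip does to these genes in mildly cool housing. It gave lower levels of the import receptor Pex7 and of the fatty acyl-CoA transporter Abcd2. Of the 33 members tested, 2 (6.06%) were called lower and 0 higher, where 0.726% of the 11980 tested genes were called lower and 0.76% higher, 1.49% in all. Acox2 was under the filter and was not tested. The groups did not overlap for 11 of the 33 members, against 22.6% of all genes, and 10 members had an unadjusted p under 0.05 (16% of all genes). The median log2 fold change of the members was −0.05, and that of all tested genes 0.03.

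Pex7 carries enzymes with the less common targeting signal, such as the thiolases Acaa1a and Acaa1b, Phyh and Agps, into the peroxisome. Its transcript (NM_001161825, chromosome 10, 19860090 to 19907674, minus strand) stood at 39.4, 36.5 and 37.1 TPM in RT WT and at 29.2, 28.3 and 28.8 TPM in RT Txnip-/-. The knockout libraries all lay below the WT libraries, at 76.4% of the WT mean (log2 fold change −0.38, SE 0.06, limma adjusted p = 0.0326). Abcd2 passes very long and unsaturated acyl-CoA across the peroxisomal membrane (NM_011994, chromosome 15, 91145871 to 91192007, minus strand). It was at 16.6, 20.84 and 18.59 TPM in RT WT and at 10.6, 11.4 and 12.1 TPM in RT Txnip-/-. Here too the groups lay apart, the knockout mean being 60.9% of WT (log2 fold change −0.67, SE 0.10, limma adjusted p = 0.0284). Both calls were close to the threshold. The Pex7 call was lost on leaving out any of the 6 libraries (limma adjusted p from 0.0565 to 0.127), and the Abcd2 call on leaving out any except RT WT replicate 1 (0.0565 to 0.122). With the replicate number as a block, Pex7 had a limma adjusted p of 0.0715 and was not called. Without RT WT replicate 3, Pxmp2 was called lower in its place (log2 fold change −0.61, limma adjusted p = 0.0483).

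Other members did not pass at RT. Pecr, the reductase that removes a double bond from trans-2-enoyl-CoA, had a log2 fold change of −0.59 (SE 0.14, limma adjusted p = 0.102) with groups that did not overlap, and was called lower when all 12 libraries shared the fit (limma adjusted p = 0.0384). Among the peroxins the remaining log2 fold changes ran from −0.34 for Pex11g, a factor of peroxisome division, to 0.07 for Pex14. Among the enzymes, Agps, which puts the ether bond into ether lipids, had the highest at 0.25 (SE 0.08, limma adjusted p = 0.213).

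At TN the same comparison was made in mice with little need for heat. Pex7 and Abcd2 were again lower in Txnip-/- mice, and so were Pecr and Amacr, the racemase that readies branched chains for oxidation. Thus 4 of 34 members (11.8%) were called lower and 0 higher, where 2.17% of the 12891 tested genes were called lower and 6.49% higher, 8.66% in all. The groups did not overlap for 15 of the 34, against 31.1% of all genes, and 12 members had an unadjusted p under 0.05 (25.6% of all genes). The median log2 fold change was −0.11 over the members and 0.01 over all tested genes.

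Pex7 was at 35.6, 34.04 and 35.23 TPM in TN WT and at 28.7, 25.9 and 27.4 TPM in TN Txnip-/-, with no overlap (log2 fold change −0.34, SE 0.07, limma adjusted p = 0.0187). Abcd2 was at 20.0, 16.6 and 16.4 TPM in WT and at 13.9, 12.8 and 13.6 TPM in the knockout (log2 fold change −0.37, SE 0.09, limma adjusted p = 0.0423). All 3 knockout libraries were below the lowest WT library for both genes. The Abcd2 call was lost on leaving out any 1 of the 6 libraries (limma adjusted p from 0.0639 to 0.133). The Pex7 call was lost without TN WT replicate 3 (limma adjusted p = 0.0568) and without TN Txnip-/- replicate 2 (0.0641). Without TN Txnip-/- replicate 3, Abcd3 was called lower (log2 fold change −0.39, limma adjusted p = 0.04).

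Pecr (NM_023523, chromosome 1, 72259173 to 72284321, minus strand) was at 35.9, 29.0 and 30.6 TPM in TN WT and at 22.8, 22.1 and 20.4 TPM in TN Txnip-/-. The knockout mean was 68.4% of WT (log2 fold change −0.52, SE 0.09, limma adjusted p = 0.0141). Amacr (NM_008537, chromosome 15, 10981756 to 10996624, plus strand) was at 21.6, 19.4 and 21.2 TPM in WT and at 15.0, 13.4 and 15.7 TPM in the knockout, or 70.8% of WT (log2 fold change −0.47, SE 0.08, limma adjusted p = 0.0135). Neither gene overlapped between the groups, and both calls held whichever of the 6 libraries was left out. Exons of Pecr share bases with D230017M19Rik on the opposite strand, and the source of such reads cannot be told apart where counting does not use strand, which the sources used here do not state.

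Some members stood apart at TN without passing the test. Ehhadh, the bifunctional enzyme of straight and dicarboxylic chains, was at 11.1, 13.4 and 14.8 TPM in TN WT and at 16.5, 33.2 and 19.6 TPM in TN Txnip-/-. The groups did not overlap and the knockout mean was 176% of WT, yet the libraries of the knockout were spread widely (log2 fold change 0.72, SE 0.23, limma adjusted p = 0.0935). Pex3, an anchor for the insertion of membrane proteins, had −0.36 (limma adjusted p = 0.107). Pex2, a subunit of the ubiquitin ligase that frees the import receptor, had −0.31 (limma adjusted p = 0.108). Abcd3, the most abundant of the acyl-CoA transporters here, had −0.30 (limma adjusted p = 0.087) and Phyh had −0.25 (limma adjusted p = 0.0846).

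**Figure D2:**
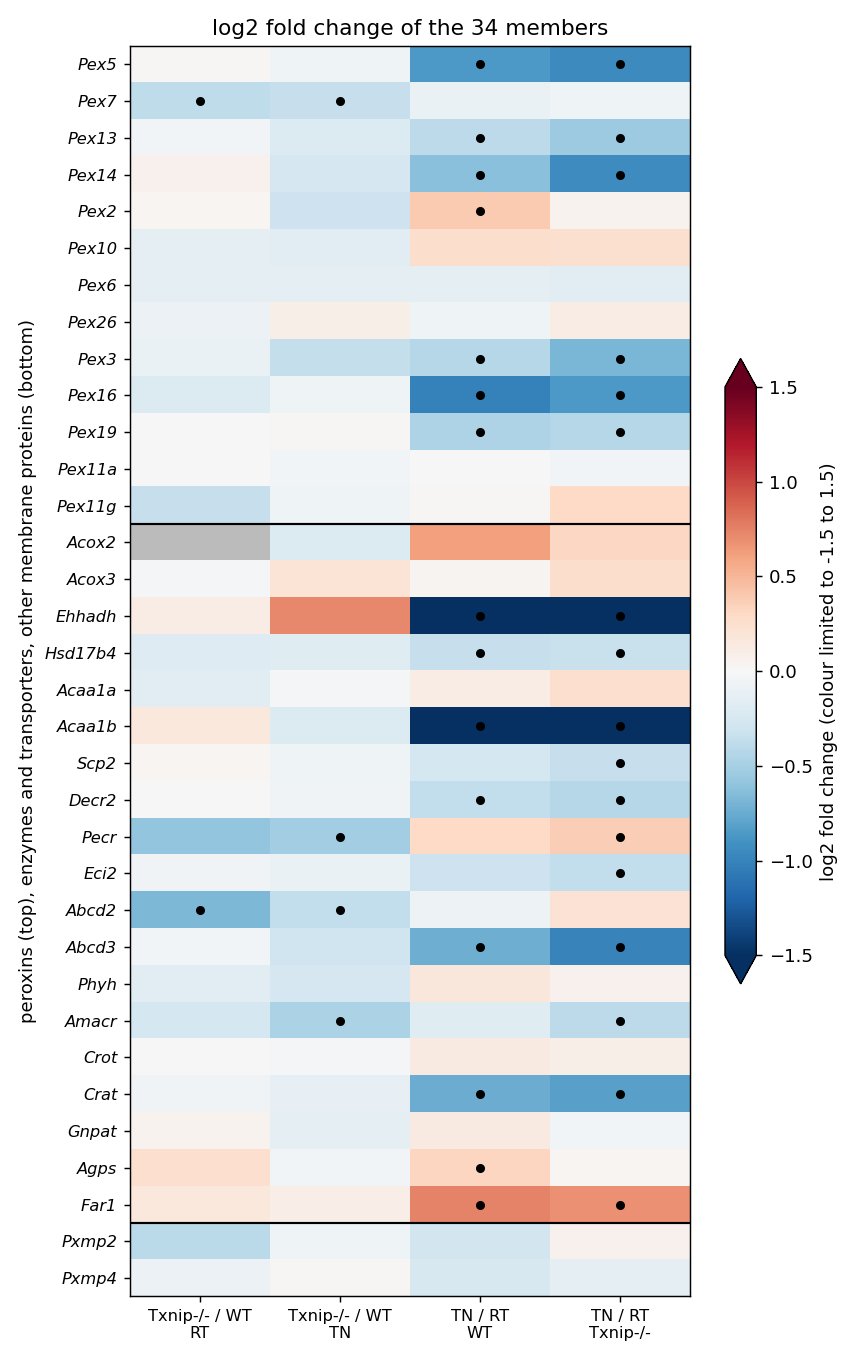
Log2 fold change of the 34 members (rows, by role) in 4 comparisons (columns), blue for lower and red for higher in the group named first, with a dot where the gene was called and grey where it was not tested. Colour stops at −1.5 and 1.5, which Ehhadh and Acaa1b pass in both columns of TN against RT. The genotype columns hold 2 and 4 dots, all on blue, and the temperature columns 15 and 17.

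More members were called between temperatures than between genotypes, as were more of all tested genes. The temperature tests used 12 libraries and the genotype tests 6. Of the members 44.1% in WT and 50% in Txnip-/- were called between temperatures, against 37.8% and 39.2% of all tested genes. Comparing TN with RT within a genotype asks how the tissue adapts when the need for heat falls, and it gave lower levels of the receptor Pex5, of docking and membrane insertion peroxins, and of the bifunctional enzyme Ehhadh and the thiolase Acaa1b. In WT mice 12 members were called lower and 3 higher of 34, or 35.3% lower, where 6.39% of the 12486 tested genes were called lower and 31.4% higher, 37.8% in all. In Txnip-/- mice 15 were called lower and 2 higher, or 44.1% lower, against 8.27% lower and 30.9% higher, 39.2% in all, over all genes. The groups did not overlap for 24 members in WT (57.5% of all genes) and for 26 in Txnip-/- (61.1% of all genes). Acox2 passed the filter here only through its TN levels. Without it, an unadjusted p under 0.05 was found for 22 of 33 members in WT and 22 in Txnip-/-, against 56.9% and 57.5% of all genes. All 12 members called lower in WT mice were among the 15 of the knockout.

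The median of all tested genes was not at 0 in this comparison. Whether the RT and TN libraries were prepared together is not stated in the sources used here. Temperature cannot be told apart from any other difference between these sets of libraries. It was 0.18 in WT and 0.15 in Txnip-/- on the log2 scale, while the members had medians of −0.16 and −0.10 (−0.18 and −0.13 without Acox2). With each library centred on its own median, 17 members were called lower and 1 higher in WT, and 16 lower and 1 higher in Txnip-/-. Over all tested genes that scaling called 14.7% lower and 15.4% higher in WT and 19.5% lower and 18.4% higher in Txnip-/-, so that 51.1% and 48.5% of all calls were higher in place of 83.1% and 78.9%. That scaling ended the calls of Agps and Pex2 in WT and of Pecr in Txnip-/-, and added Amacr, Eci2, Pex6, Pxmp4 and Scp2 in WT and Pex6 in Txnip-/-.

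Of the import receptors, Pex5, which brings in most matrix proteins, fell at TN. It was at 81.8, 77.4 and 78.4 TPM in RT WT and at 47.8, 41.7 and 40.0 TPM in TN WT. In Txnip-/- mice it was at 80.8, 86.2 and 75.1 TPM at RT and at 38.0, 41.2 and 43.5 TPM at TN. Every TN library was well below every RT library, at 54.5% of the RT mean in WT (log2 fold change −0.86, SE 0.08, limma adjusted p = 4.31e-05) and 50.7% in Txnip-/- (−0.96, SE 0.08, limma adjusted p = 9.85e-06). Pex7, the other receptor, had −0.10 in WT and −0.07 in Txnip-/- and was not called in either (limma adjusted p = 0.14 and 0.3).

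Docking and membrane insertion peroxins fell with Pex5. Pex14, the docking protein that meets the loaded receptor, was at 61.3 ± 1.33 TPM (SD, n = 3) in RT WT and 39.4 ± 2.91 (SD, n = 3) in TN WT, and at 65.1 ± 11.4 and 33.0 ± 2.21 TPM (SD, n = 3) in Txnip-/-. Its log2 fold changes were −0.63 and −0.94, and those of its partner Pex13 were −0.39 and −0.55. Pex16, which takes part in the first steps of membrane assembly, was at 87.4, 72.3 and 77.3 TPM in RT WT and at 39.6, 39.4 and 36.8 TPM in TN WT. In Txnip-/- mice Pex16 was at 52.2, 80.2 and 74.6 TPM at RT and at 36.6, 42.5 and 32.5 TPM at TN. The RT knockout library with 52.2 TPM was the lowest at RT and still above all TN libraries, and the log2 fold changes were −1.01 in WT (SE 0.14, limma adjusted p = 0.000312) and −0.86 in Txnip-/- (SE 0.14, limma adjusted p = 0.000518). Pex3 had −0.43 and −0.69, and Pex19, the chaperone of new membrane proteins, had −0.46 and −0.43, both called in each genotype. Exons of Pex13, Pex14, Pex3 and Pex16 share bases with genes on the opposite strand, among them Pus10, Adat2 and Large2.

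The other peroxins were not called lower. The ubiquitin ligase gene Pex2 was called higher at TN in WT mice (43.9 ± 4.93 to 57.8 ± 1.89 TPM, SD, n = 3, log2 fold change 0.39, limma adjusted p = 0.00788) and was at 0.05 in Txnip-/- mice (limma adjusted p = 0.716). The Pex2 call was lost with upper-quartile scaling (log2 fold change 0.29) and with centring (0.21). Pex10 of the same ligase had 0.26 and 0.24, under the fold required, and was called higher in WT without RT WT replicate 1 (0.33). Pex6 and Pex26, which pull the receptor back out of the membrane, were not called, with −0.15 and −0.07 in WT and −0.17 and 0.11 in Txnip-/-. Of the division factors, Pex11a had −0.01 and −0.04, and Pex11g had 0.02 and 0.30. Pex11g passed the adjusted p in Txnip-/- (limma adjusted p = 0.0125) but not the fold, at 9.95 ± 0.702 TPM at RT and 12.47 ± 1.21 TPM at TN (SD, n = 3). It was called higher there with limma-voom on the recovered reads (log2 fold change 0.36) and without RT Txnip-/- replicate 3 or TN Txnip-/- replicate 1 or 3 (0.33 to 0.34).

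Among the enzymes, the largest falls were in Ehhadh and Acaa1b. Ehhadh (NM_023737, chromosome 16, 21761285 to 21787834, minus strand) was at 105, 80.4 and 105 TPM in RT WT and at 11.1, 13.4 and 14.8 TPM in TN WT. In Txnip-/- mice it was at 83.8, 143 and 93.4 TPM at RT and at 16.5, 33.2 and 19.6 TPM at TN. No TN library came near an RT library, and the TN mean was 13.5% of RT in WT (log2 fold change −2.79, SE 0.24, limma adjusted p = 4.15e-05) and 21.7% in Txnip-/- (−2.18, SE 0.24, limma adjusted p = 4.38e-05).

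Acaa1b is a thiolase that cuts acetyl-CoA from the oxidised chain (NM_146230, chromosome 9, 119148043 to 119157093, minus strand). It was at 30.9, 26.9 and 36.0 TPM in RT WT and at 8.14, 10.0 and 6.62 TPM in TN WT. In Txnip-/- mice it was at 30.1, 42.3 and 32.9 TPM at RT and at 6.38, 4.75 and 10.8 TPM at TN. The TN groups lay far below the RT groups in both genotypes, with log2 fold changes of −1.81 (SE 0.23, limma adjusted p = 0.000199) and −2.17 (SE 0.23, limma adjusted p = 3.53e-05). Its near-identical neighbour Acaa1a, on the same chromosome, was at 101 ± 2.93 TPM in RT WT and 109 ± 5.31 TPM in TN WT (SD, n = 3), with log2 fold changes of 0.11 and 0.25 that were not called, although the second was without TN Txnip-/- replicate 3 (0.33). Reads that fall on stretches shared by this pair of genes could be counted for either, so the level of each is uncertain.

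The remaining steps of chain shortening fell by less or were not called. Hsd17b4, the bifunctional enzyme of branched and very long chains, was called lower in both genotypes with −0.34 and −0.33. Decr2, a reductase of unsaturated chains, was lower with −0.37 and −0.43. Scp2, a thiolase and sterol carrier, had −0.26 and −0.35, and the isomerase Eci2 had −0.31 and −0.37. Both passed the adjusted p in each genotype, but only the values in Txnip-/- passed the fold. In WT both were called lower with upper-quartile scaling (−0.36 for Scp2 and −0.42 for Eci2) and with centring, Scp2 also without TN WT replicate 1 (−0.34), and Eci2 without RT WT replicate 3 (−0.34) or TN WT replicate 1 (−0.32). The oxidase Acox3 was at 0.04 and 0.26, with no call. Acox2 was at 0.690 ± 0.436 TPM in RT WT and 1.64 ± 0.874 TPM in TN WT, and at 0.766 ± 0.0895 and 1.22 ± 0.479 TPM in Txnip-/- (SD, n = 3), ranges that overlapped in both genotypes, and no call is read from them since only its TN level carried it past the filter. Pecr went the other way, with 0.30 in WT (limma adjusted p = 0.069) and 0.37 in Txnip-/- (limma adjusted p = 0.03), where it was called higher. Hsd17b4 was close to the fold threshold and its call was lost without TN WT replicate 2 or 3 in WT (log2 fold changes −0.29 and −0.28), and in Txnip-/- without RT Txnip-/- replicate 2 or 3 or TN Txnip-/- replicate 1 or 3 (log2 fold changes −0.31, −0.28, −0.32 and −0.31). With limma-voom on the recovered reads Hsd17b4 was not called in either genotype (log2 fold changes −0.32 and −0.31). The Pecr call was lost without RT Txnip-/- replicate 2 or 3 or TN Txnip-/- replicate 1 or 2 (limma adjusted p from 0.0706 to 0.132), and with upper-quartile scaling (0.0629) and centring (0.225). In WT it was called higher without RT WT replicate 2 (log2 fold change 0.38), and Acox3 was called higher in Txnip-/- without RT Txnip-/- replicate 1 (0.33).

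Transport in and out of the organelle differed by gene. Abcd3 was at 199 ± 10.9 TPM in RT WT and 119 ± 8.43 TPM in TN WT (SD, n = 3), and at 195 ± 27.4 and 97.0 ± 10.6 TPM in Txnip-/- (SD, n = 3). Its TN mean was 59.9% of RT in WT (log2 fold change −0.73, limma adjusted p = 0.000309) and 49.7% in Txnip-/- (limma adjusted p = 3.02e-05). Abcd2 had −0.08 and 0.22 and was not called. Crat, which moves short acyl groups onto carnitine in peroxisomes and mitochondria, was at 293 ± 23.9 TPM in RT WT and 175 ± 21.1 TPM in TN WT (SD, n = 3). Crat was lower in both genotypes, with −0.74 and −0.82, while Crot, its relative for medium chains, had 0.13 and 0.09 without a call. Of the genes of branched chains, Amacr had −0.18 in WT (limma adjusted p = 0.0842) and was called lower in Txnip-/- with −0.39 (limma adjusted p = 0.00197), and Phyh had 0.17 and 0.07.

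Of the 3 genes of ether lipid synthesis, 0 were called lower at TN, while 2 were called higher in WT (31.4% of all genes) and 1 in Txnip-/- (30.9% of all genes). Far1, the reductase that supplies the fatty alcohol, rose from 4.77, 4.97 and 4.22 TPM in RT WT to 8.13, 8.77 and 8.47 TPM in TN WT. In Txnip-/- mice Far1 went from 5.57, 5.11 and 5.29 TPM to 9.03, 8.87 and 9.48 TPM. All TN libraries were above all RT libraries, at 182% of the RT mean in WT (log2 fold change 0.74, SE 0.07, limma adjusted p = 5.21e-05) and 172% in Txnip-/- (0.68, SE 0.07, limma adjusted p = 3.2e-05), and the call held under both other scalings. Exons of Far1 share bases with Far1os on the opposite strand. Agps was called higher in WT with 0.32 (limma adjusted p = 0.00739), a call lost without RT WT replicate 3 (log2 fold change 0.28), TN WT replicate 1 (0.32) or TN WT replicate 2 (0.27) and under both other scalings (0.23 with the upper quartile and 0.14 with centring), and had 0.03 in Txnip-/-. Gnpat, which acts before Agps, had 0.14 and −0.04. The membrane proteins Pxmp2, a channel, and Pxmp4 had −0.27 and −0.24 in WT and 0.07 and −0.13 in Txnip-/-, with no call. In WT, Pxmp2 was called lower without RT WT replicate 3 (log2 fold change −0.48, limma adjusted p = 0.0451), and Pxmp4 with upper-quartile scaling (−0.34) as with centring.

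**Figure D3:**
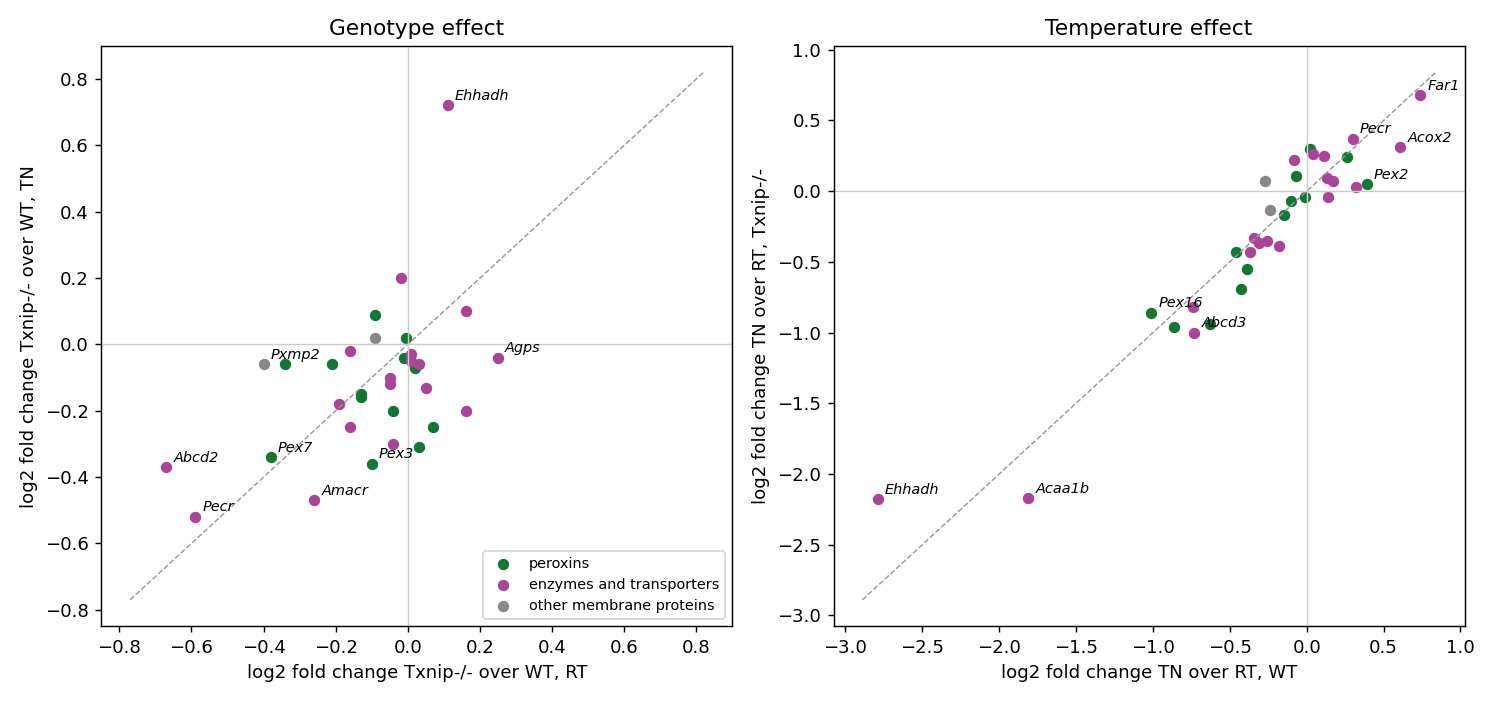
Log2 fold changes of the members, with Txnip-/- over WT at RT (x axis) and at TN (y axis) on the left, and TN over RT in WT (x axis) and in Txnip-/- (y axis) on the right. Each point is a gene coloured by class, and the dashed line marks equal effects. On the left Abcd2, Pex7, Pecr and Amacr lie low on both axes and Ehhadh lies alone at the top (0.11 and 0.72), while on the right Ehhadh and Acaa1b lie far below the rest.

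Whether the genotype effect differed between temperatures was tested by the interaction. Of the 34 members 0 were called at an adjusted p under 0.05 in limma, which called 0.00801% of the 12486 genes tested, and 0 in limma-voom on the recovered reads, which called 2 genes in all. An unadjusted p under 0.05 was found for 4 members, or for 12.6% of all genes. These were Agps (interaction −0.29, unadjusted p = 0.0287, limma adjusted p = 0.346), Pex2 (−0.35, unadjusted p = 0.0342, limma adjusted p = 0.355), Pex11g (0.28, unadjusted p = 0.0392, limma adjusted p = 0.365) and Abcd2 (0.30, unadjusted p = 0.0466, limma adjusted p = 0.388). For Ehhadh the interaction was 0.61 (SE 0.34, limma adjusted p = 0.487). Calls made in a single genotype or at a single temperature were therefore not shown to differ between them.

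The peroxins and the enzymes were then set side by side over the 4 groups. Averaged over its 13 genes, the peroxin class had a mean log2(TPM + 1) of 5.445 ± 0.059 in WT and 5.345 ± 0.087 in Txnip-/- mice at RT, and of 5.182 ± 0.068 and 5.036 ± 0.017 at TN (SD, n = 3). The 19 enzymes and transporters had 5.771 ± 0.030, 5.701 ± 0.047, 5.505 ± 0.037 and 5.397 ± 0.045 in the same groups (SD, n = 3). The group means of both classes ran in the same order. Most of the fall of the enzyme average at TN came from Ehhadh and Acaa1b. Their log2 fold changes were −2.79 and −1.81 in WT and −2.18 and −2.17 in Txnip-/-. Of the 19 enzymes and transporters, 10 had a negative and 9 a positive log2 fold change in each genotype, Acox2 among the positive. For peroxins the genotypes overlapped at RT, with 5.404 in RT Txnip-/- replicate 2 against 5.403 in RT WT replicate 3, and without RT Txnip-/- replicate 1 the mean of that group was 5.395. The lowest peroxin average at RT was that of RT Txnip-/- replicate 1, with 5.245, which lay under the highest of TN WT, with 5.26. That library had the lowest level of its group for 8 of the 13 peroxins. For the enzymes no TN library reached the lowest RT library (5.648). As summed TPM, peroxins had 711, 678, 559 and 501, and enzymes 2437, 2309, 2145 and 1902, of which Phyh alone made up 732, 656, 824 and 689 TPM.

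**Figure D4:**
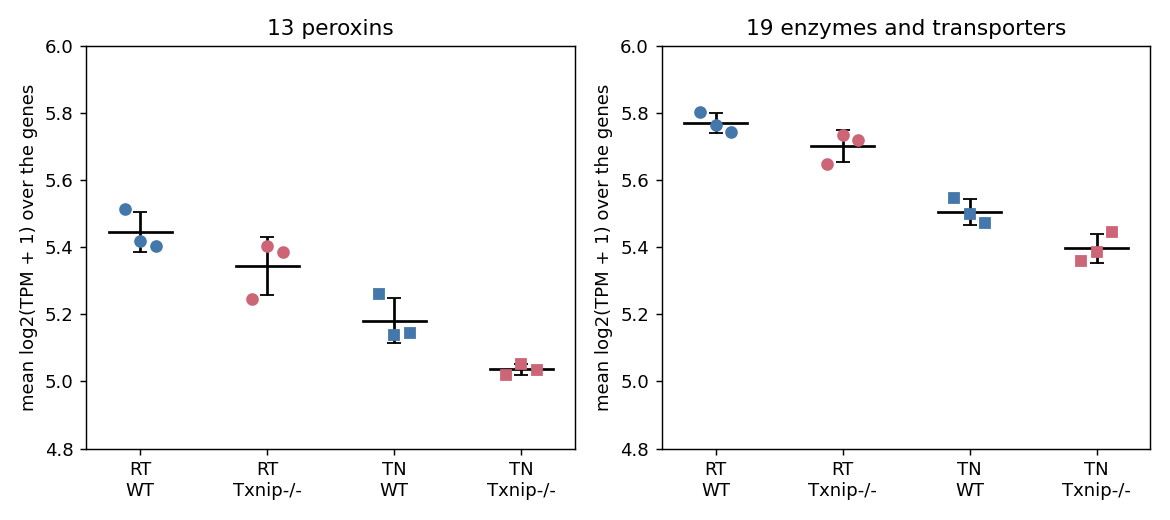
Mean log2(TPM + 1) over the 13 peroxins (left) and the 19 enzymes and transporters (right) in each library, with the group mean as a line and the SD as bars (n = 3). The axis starts at 4.8. In both panels TN means lie below RT means, and Txnip-/- means below WT means of the same temperature. Most of the fall of the enzyme average at TN came from Ehhadh and Acaa1b.

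The same was done by counts. At RT, 1 of 13 peroxins and 1 of the 18 enzymes tested were called lower in Txnip-/- mice (0.726% of all genes), with median log2 fold changes of −0.09 and −0.03. At TN these were 1 of 13 and 3 of 19 (2.17% of all genes), with medians of −0.15 and −0.12. At TN against RT, 6 of 13 peroxins were lower and 1 higher in WT and 6 lower and 0 higher in Txnip-/-, with medians of −0.15 and −0.17. Over all genes 6.39% were lower and 31.4% higher in WT, and 8.27% lower and 30.9% higher in Txnip-/-. Of the enzymes 6 were lower and 2 higher in WT and 9 lower and 2 higher in Txnip-/-, with medians of −0.08 and −0.04. These medians hold Acox2, and where each of the libraries had to reach a TPM of 1, which leaves it out, they were −0.13 and −0.18. In both classes the share called lower was above that of all genes and the share called higher was below it. The enzymes had the wider spread of log2 fold changes in WT, from −2.79 to 0.74, against −1.01 to 0.39 for the peroxins. The difference between the classes was not tested, since the genes were listed with results known. Centring each library gave medians of −0.33 for peroxins and −0.26 for enzymes in WT, and of −0.36 and −0.22 in Txnip-/-.

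Other genes of the peroxisome were taken from a list of 52, of which 51 were in the table and 44 tested. At RT, Gstk1, a peroxisomal and mitochondrial glutathione transferase, was lower in Txnip-/- mice (−0.41, limma adjusted p = 0.0455) as 1 of 44, with 0 higher, where 0.726% of all genes were lower and 0.76% higher. At TN, 6 were lower and 0 higher (2.17% and 6.49% of all genes). The 5 with the largest change were Acsl1, an acyl-CoA synthetase (−0.62), the nucleotide hydrolase Nudt12 (−0.51), the membrane protein gene Mpv17l (−0.48), the epoxide hydrolase Ephx2 (−0.46) and catalase Cat (−0.37). At TN against RT, 11 were lower and 2 higher in WT (6.39% and 31.4% of all genes), and 15 lower and 1 higher in Txnip-/- (8.27% and 30.9% of all genes). The largest in both genotypes were Acot4, a thioesterase (−1.49 and −1.37), Tysnd1, the peroxisomal processing protease (−1.36 and −1.19), Acsl1 (−1.14 and −1.58), Slc25a17, the cofactor carrier of the membrane (−1.01 and −1.07), and Slc27a2, a very long chain acyl-CoA synthetase (−0.82 and −1.23). The medians of this list were −0.05 and −0.12 for genotype at RT and TN, and −0.10 and −0.22 for temperature in WT and Txnip-/-.

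Mitochondrial beta-oxidation and the regulators were read in the same way. Of 18 mitochondrial genes, 0 were called at RT between genotypes, where 6 had an unadjusted p under 0.05 (16% of all genes). At TN 3 were lower in Txnip-/- mice and 0 higher (2.17% and 6.49% of all genes). These were the carnitine acyltransferase Cpt1b (−0.65, limma adjusted p = 0.0355), the carnitine carrier Slc25a20 (−0.48, limma adjusted p = 0.00979) and the dehydrogenase Acadl (−0.38, limma adjusted p = 0.0331). At TN against RT, 10 were lower and 0 higher in WT (6.39% and 31.4% of all genes), and 12 lower and 1 higher in Txnip-/- (8.27% and 30.9% of all genes), with Etfdh (−0.76 and −0.93), Slc25a20 (−0.72 and −1.05) and Cpt2 (−0.71 and −0.62) among the largest.

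Of 11 regulators, 0 were called between genotypes at RT, where 1 had an unadjusted p under 0.05 (16% of all genes). At TN 7 had an unadjusted p under 0.05 (25.6% of all genes), the median log2 fold change was −0.34, and 1 was called lower (2.17% of all genes), namely Esrra, an orphan nuclear receptor of oxidative genes (−0.41, limma adjusted p = 0.022). Ppara, which codes for PPAR alpha, was at 113 ± 10.9 TPM in RT WT and 97.8 ± 28.6 TPM in the knockout at RT, and at 143 ± 13.7 and 72.3 ± 35.7 TPM at TN (SD, n = 3), with −1.09 for genotype at TN (limma adjusted p = 0.0656). Pparg, the master gene of fat cell identity, had −0.46 there (limma adjusted p = 0.132) and was higher at TN in WT (0.56, limma adjusted p = 0.0152). Ppargc1a, a coactivator of mitochondrial genes, had −0.72 for genotype at TN (limma adjusted p = 0.0514), and at TN against RT it had −0.86 in WT (limma adjusted p = 0.0636) and was lower in Txnip-/- (−1.95, limma adjusted p = 0.000909). At TN against RT, 2 regulators were lower and 1 higher in WT, and 4 lower and 0 higher in Txnip-/-, with the same shares over all genes as above. Nr1h3, a sterol-sensing receptor (−0.50 and −0.56), and Rxrg, a partner of PPARs (−0.38 and −0.48), were lower in both genotypes.

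Markers of cells in the tissue moved with the same groups. Summed levels of 6 macrophage markers were 45.8 to 50.0 TPM in RT WT and 78.8 to 139 TPM in the knockout at RT, and 108 to 196 and 313 to 433 TPM at TN. For 4 fibroblast markers the ranges were 113 to 148, 138 to 155, 188 to 243 and 355 to 365 TPM, and for 5 lymphocyte markers 2.10 to 3.55, 3.80 to 4.82, 5.05 to 8.90 and 17.6 to 23.6 TPM. At RT, 2 of the 5 macrophage markers tested and 0 of 4 fibroblast markers were called higher in Txnip-/- mice, where 0.76% of all genes were called higher. At TN 6 of 6 and 4 of 4 were called higher in Txnip-/- mice (6.49% of all genes). At TN against RT, 6 of 6 macrophage and 4 of 4 fibroblast markers were called higher in both genotypes (31.4% of all genes in WT and 30.9% in Txnip-/-). The macrophage marker not tested at RT entered this comparison only through its TN levels, and no call is read from it. The 7 brown adipocyte markers summed to 27879 to 28819, 24537 to 29412, 19991 to 21619 and 17240 to 18987 TPM in the 4 groups, with 1 of 7 called lower in Txnip-/- at RT (0.726% of all genes) and 3 of 7 at TN (2.17%). Between temperatures, 4 of 7 were lower at TN in WT (6.39% of all genes) and 5 of 7 in Txnip-/- (8.27%). Their log2 fold changes ran from −3.05 to 0.19 in WT and from −3.64 to 0.30 in Txnip-/-, so the sum does not stand for each gene. In bulk tissue, fewer brown adipocytes and less RNA per brown adipocyte cannot be told apart. The part of cell makeup in the falls of peroxisomal genes was not tested.

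Other marker lists were smaller or varied within groups. The 5 skeletal muscle markers summed to 0.528 to 0.789 TPM in RT WT and to 13.2 to 35.1 TPM in RT Txnip-/-, and reached 10.7 and 10.3 TPM in TN WT and TN Txnip-/-. Those tested at RT passed the filter only through RT Txnip-/-, so no call between genotypes is read from them. At TN 1 of the 5 passed the filter, so the rest of those tested between temperatures were tested only through RT Txnip-/-, and no call is read there either. Of 3 white adipocyte markers, 0 were called between genotypes at RT and 2 were higher in Txnip-/- at TN (6.49% of all genes). Between temperatures 2 of 3 were higher at TN in both genotypes, with medians of 1.28 in WT and 2.30 in Txnip-/-, where 31.4% and 30.9% of all genes were called higher. Of 3 Schwann cell markers 1 was lower in Txnip-/- at each temperature (0.726% of all genes at RT and 2.17% at TN). Between temperatures 1 was lower at TN in WT (6.39% of all genes) and 1 higher in Txnip-/- (30.9% of all genes). Of 4 endothelial markers 0 were called between genotypes, with 3 and 4 higher at TN against RT in WT and Txnip-/- (31.4% and 30.9% of all genes). Of the hepatocyte markers 1 of 4 was tested, and neither it nor the 3 red blood cell markers were called in any comparison. No marker of these lists was at 0 in all 12 libraries.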

How the data were processed

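RNA of interscapular BAT was sequenced by the authors in 12 libraries, 3 in each of 4 groups, which were taken from the sample labels. The authors selected poly-A RNA, mapped single-end reads with STAR 2.7.5a to the mm10 genome and counted reads on exons with HOMER 4.11.1. They deposited TPM of 25124 genes with a transcript length for each, and for each temperature a table of log2-scale values of 6 libraries with fold changes and p-values from their DESeq2 comparison. Those fold changes and p-values were not used. The transcript of the log2-scale tables differs from that of the TPM for 14 members at each temperature. The listed genes hold between 55.38% and 57.55% of the total to which TPM are scaled.

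TPM were tested as log2(TPM + 1) with limma 3.58.1 in R 4.3.3, with an expression trend, genes of a mean TPM of at least 1, two-sided p-values and Benjamini-Hochberg adjustment over all genes tested. Genotypes were compared on the 6 libraries of a temperature. TN against RT and the interaction came from a fit of 4 group means to 12 libraries. TPM times length came in whole multiples of 1 read for 100% of the genes checked, within 0.1 read. limma-voom on these recovered reads, an alternative chosen after seeing the data, called 171 genes at RT and 1302 at TN between genotypes. Steps of the fit were tested on simulated data. Other alternatives were log2(TPM + 0.1), other filters, upper-quartile scaling, median centring, the replicate number as a block, the authors' log2-scale values, other thresholds and leaving out each library.

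Of the 34 members, 16 share exon bases with a gene on the opposite strand in GENCODE, and whether counting used strand is not given in the sources used here. Named genes are all members, Txnip and the brown adipocyte markers. Of the other lists they are the called genes, up to 5 a list by size of log2 fold change, with Ppara, Pparg and Ppargc1a. The members and lists were chosen with earlier results of these data known. Library numbers come from the sample titles. Column names number the RT libraries on from those of TN, and the block for TN against RT joined libraries by title number. Deviations of same-numbered libraries from their group means had an r across genes of 0.297, −0.0221 and 0.21 at RT and of 0.042, 0.0228 and −0.0362 at TN, so the numbers were not taken to pair libraries. Counting error of single values was not computed, and the spread between 3 libraries set the precision.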

Additional observations from a re-analysis of the deposited data

How the results depend on the processing

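Between genotypes at RT, the count of 2 called members was 0 without the filter, 1 with the authors' log2-scale values, and 0 to 1 on leaving out a library. With the authors' values Pex7 at RT missed only the fold (log2 fold change −0.27, limma adjusted p = 0.0289). At TN the count of 4 was 3 without the filter, which lost Abcd2 (limma adjusted p = 0.0831), and 2 to 4 on leaving out a library. It was 2 with the authors' values (1.43% of all genes lower and 4.72% higher). There Pex7 (−0.25, limma adjusted p = 0.0183) and Abcd2 (−0.29, limma adjusted p = 0.0289) missed only the fold. Why the authors' values gave smaller changes for these genes was not tested. At TN against RT the counts of 15 in WT and 17 in Txnip-/- were 13 to 17 and 15 to 18 on leaving out a library. Over all genes those fits called 5.65% to 6.54% lower and 26.9% to 31.4% higher in WT. In Txnip-/- they called 7.13% to 8.99% lower and 27.1% to 32% higher. The counts of 17 in WT include Acox2, which was tested only through its TN level and is not counted as gained. The interaction called 0 members under all alternatives run.

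With the replicate number as a block, 1 member was called at RT (Abcd2), 4 at TN, 16 and 17 at TN against RT in WT and Txnip-/- (the added call in WT is Acox2, tested only through its TN level and not counted as gained), and 0 in the interaction. Over all genes the block gave 100 calls in place of 178 at RT and 4 in place of 1 in the interaction. It called 1.93% of all genes lower and 5.65% higher at TN. At TN against RT it called 6.45% lower and 31.5% higher in WT, and 8.38% lower and 31.1% higher in Txnip-/-.

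The median log2 fold changes at TN against RT moved most. In WT those of peroxins and enzymes were −0.25 and −0.17 with upper-quartile scaling and −0.33 and −0.26 with centring, and that of enzymes was −0.13 where each of the libraries had to reach a TPM of 1. In Txnip-/- they were −0.25 and −0.12, and −0.36 and −0.22, and that of enzymes was −0.18 with that filter and also with the 6 libraries of the genotype alone. On leaving out a library, peroxins and enzymes ran from −0.30 to −0.09 and −0.16 to 0.00 in WT, and from −0.21 to −0.13 and −0.07 to 0.01 in Txnip-/-. Between genotypes they ran from −0.09 to −0.02 and −0.08 to 0.01 at RT, from −0.20 to −0.10 and −0.14 to −0.05 at TN, and in the interaction from −0.09 to 0.02 and −0.12 to −0.01.

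Over all genes, calls at RT were 44 without the filter and 272 with all 12 libraries in place of 178, and 2 (without RT WT replicate 2) to 159 on leaving out a library. At TN they were 621 without the filter in place of 1116, and 456 (without TN Txnip-/- replicate 1) to 1005 on leaving out a library. The interaction had 2 calls with limma-voom and 25 at an adjusted p under 0.1 in place of 1. The share of calls that were higher at TN against RT was 70.4% in WT and 68.8% in Txnip-/- with upper-quartile scaling.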
